A study of Mus musculus with 3 samples.

Results

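The intercalated disc and gap junction genes were 10 of the 54532 mouse genes in the deposited tables, chosen by gene name. They were the connexin genes Gja1, Gja5 and Gjc1, the desmosome genes Pkp2, Dsp, Dsg2 and Jup, the adherens junction genes Cdh2 and Ctnna3, and the scaffold gene Tjp1. All 10 were found once in the tables, and all 10 had at least 10 counts in at least 1 library.

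RNA was sequenced from 3 libraries, 1 per condition, so no difference between conditions had a replicate check and no p-value was computed. MICFs were cardiac fibroblasts isolated from infarcted mouse hearts 5 days after ligation of the coronary artery and cultured without virus for the same 4 weeks as the transduced cells. GMTMS-iCMs were MICFs transduced with doxycycline-inducible lentiviruses (1 μg/ml doxycycline) for Gata4, Mef2c, Tbx5, Myocd and Sall4, and GMTMM-iCMs received Mesp1 in place of Sall4. After 4 weeks, the iCMs (induced cardiomyocytes) were sorted for mCherry, a reporter driven by the Myh6 promoter, and 5 sorted samples were combined for each iCM library. Myh6 is itself a cardiomyocyte gene, so the levels of cardiomyocyte genes in the sorted iCMs are not independent of the sort. Whether the MICFs received doxycycline or passed through a sorter is not given in the sources used here. The library labelled GMTMM held 1060 counts of Sall4 and 0 of Mesp1, which goes against its label. GMTMS-iCMs held 1190 counts of Sall4 and MICFs held 0.

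The intercalated disc is the end-to-end contact of cardiomyocytes, where adherens junctions couple the actin of neighbouring cells, desmosomes couple the desmin filaments, and gap junctions of connexins pass ions and small molecules. In working ventricular muscle the main connexin is connexin 43, encoded by Gja1. Connexin 40 (Gja5) is found in atrial muscle, the conduction system and arterial endothelium, so several junction genes are also used by cells other than cardiomyocytes.

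The library totals were 11861773 counts in MICFs and 10624118 in GMTMS-iCMs, with 11904484 in the library labelled GMTMM. FPKM, fragments scaled by gene length and by library, was taken as deposited. Levels of different genes are compared on this scale, because it accounts for gene length, unless counts are named. Differences between libraries are of log2 (quantile-normalized FPKM + 1), and the words higher and lower are kept for differences past 1 in size unless a fold is given. A fold is the ratio of 2 deposited FPKM values, and its 95% Clopper-Pearson interval comes from both counts. Those intervals and the Poisson intervals of levels cover counting error only, since duplicate reads and variation between cultures do not enter them.

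All 3 libraries held RNA of several cell types. The 8 macrophage markers had the highest sums, 8369, 17263 and 8187 FPKM in MICFs, in GMTMS-iCMs and under the label GMTMM, and none was at 0. Smooth muscle and pericyte markers summed to 309, 405 and 697 FPKM, of which Acta2 alone was 182, 300 and 445. Of these 8 markers, 2 were higher and 4 lower than in MICFs in GMTMS-iCMs. Under the label GMTMM, 3 were higher and 0 lower. The 4 glial markers summed to 0.805, 0.294 and 1.06 FPKM. The part of these cell types in the levels of the junction genes was not tested.

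The iCM libraries held more of Gja1 and of the desmosome gene Dsp than MICFs, and less of Gja5. In GMTMS-iCMs, Gja1 and Dsp were higher, and Gja5, Jup and Tjp1 were lower, with 5 genes past neither limit. In the library labelled GMTMM, Gja1 and Dsp were higher and Gja5 was lower, with 7 genes past neither limit. These comparisons share the MICF library, so they are not independent of each other.

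In GMTMS-iCMs 2 of the 10 genes were higher and 3 were lower than in MICFs, where 3.13% of all genes were higher and 2.72% lower. Among the 15702 genes with at least 10 counts in at least 1 library, the background more like these 10 genes, 9.00% were higher and 8.69% lower. For the library labelled GMTMM, 2 genes were higher and 1 lower, against 2.12% and 1.30% of all genes and 6.43% and 3.53% of the counted genes. The median difference from MICFs over the 10 genes was −0.44 in GMTMS-iCMs, and it was 0.25 in the library labelled GMTMM, and the counted genes had medians of −0.07 and −0.08. Between the transduced libraries, Dsp was higher in GMTMS-iCMs and Gjc1, Cdh2 and Tjp1 were lower (1 gene against 3), with the low counts of Gja5 giving no call on this scale. There 2.33% of all genes were higher and 2.84% lower, and 6.11% and 9.07% of the counted genes. Scaled by library totals instead, GMTMS-iCMs had 3 of the 10 genes higher and 5 lower than MICFs, beside 1315 higher and 3772 lower of all genes (1708 and 1485 on the main scale). The 10 genes therefore did not move as a group, and their differences ran from −2.96 for Gja5 to 3.42 for Dsp in GMTMS-iCMs.

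**Figure D1:**
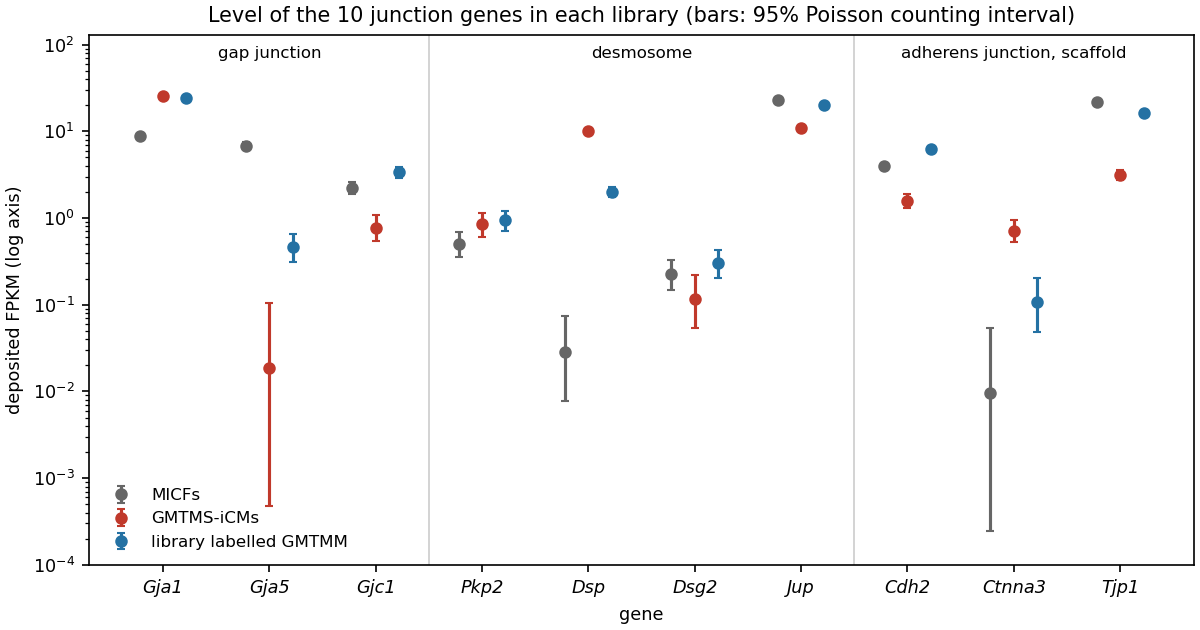
Deposited FPKM (vertical log axis) of the 10 genes in MICFs (grey), GMTMS-iCMs (red) and the library labelled GMTMM (blue), with 95% Poisson counting intervals as bars and 1 library per point. Gja1 sits at 8.79, 25.8 and 24.5, while Dsp and Ctnna3 are lowest in MICFs and Gja5 is lowest in GMTMS-iCMs.

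Regions upstream of RefSeq starts of Gja1, Gja5 and Dsp, the 3 genes past the limit in the same direction in both iCM libraries, are shown with motifs of the delivered factor families. The sequences are 250 bases before the RefSeq start on GRCm38.p6, 5′ to 3′ on the gene's strand, with capitals marking a motif found on either strand. For Gja5 the RefSeq start lies well inside the longer gene that was counted, so its stretch is not upstream of that gene as a whole. For the GATA family the letters AGATAA were searched. T-box factors were represented by AGGTGT and the MEF2 family by CTANNNNTAG. The CArG box of serum response factor, the partner of myocardin, was the last motif, and no matches overlap in these sequences.
Gja1, chr10:56377050-56377299: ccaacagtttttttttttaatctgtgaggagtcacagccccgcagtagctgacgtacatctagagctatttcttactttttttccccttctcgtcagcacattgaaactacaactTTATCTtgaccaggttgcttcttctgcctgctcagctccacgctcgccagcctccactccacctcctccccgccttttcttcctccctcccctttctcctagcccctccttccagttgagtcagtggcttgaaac
Gja5, chr3:97032152-97032401: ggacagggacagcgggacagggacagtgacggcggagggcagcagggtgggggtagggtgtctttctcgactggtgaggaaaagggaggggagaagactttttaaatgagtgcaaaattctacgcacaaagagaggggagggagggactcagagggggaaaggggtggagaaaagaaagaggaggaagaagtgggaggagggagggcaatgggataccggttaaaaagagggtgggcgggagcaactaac
Dsp, chr13:38151044-38151293: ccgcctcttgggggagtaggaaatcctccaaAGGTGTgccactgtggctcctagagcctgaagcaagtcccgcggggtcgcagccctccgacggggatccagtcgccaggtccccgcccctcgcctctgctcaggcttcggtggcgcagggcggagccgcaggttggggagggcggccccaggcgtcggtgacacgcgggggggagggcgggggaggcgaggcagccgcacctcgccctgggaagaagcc
The Gja1 region held 1 GATA motif, at position −135 counted back from the start and read on the opposite strand. The Dsp region held 1 T-box motif at position −219, and the Gja5 region held none of the 4. Of 32851 RefSeq promoter regions of the same length, 9.99% held the GATA motif, 11.8% the T-box motif, 3.2% the MEF2 motif and 1.47% a CArG box. A match is a description of the letters and not a binding site. The Dsp region was 72.4% G and C with 22 CpG dinucleotides, against 50% with 6 for Gja1, 56.4% with 7 for Gja5, and medians of 52.4% and 6 over all regions. RefSeq entries were found for 6 of the 10 genes (Gja1, Gja5, Dsp, Jup, Ctnna3 and Tjp1).

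Connexins join into hemichannels that dock between cells to form the gap junction channel. Gja1 (ENSMUSG00000050953, GRCm38 chr10:56377330-56402513, plus strand) was at 1298 counts in MICFs and 2462 in GMTMS-iCMs, with 2941 in the library labelled GMTMM. Its levels were 8.79, 25.8 and 24.5 FPKM in the same order. Both iCM libraries were above MICFs, by 2.94-fold (interval 2.75 to 3.15) in GMTMS-iCMs and 2.79-fold (2.61 to 2.98) in the library labelled GMTMM. The log2 differences were 1.30 and 1.25, over 1 with each of 9 other scalings. Between both iCM libraries the ratio was 1.05 (0.998 to 1.11), an interval that holds 1. With library totals in place of the deposited scaling, Gja1 was 2.12-fold (1.98 to 2.27) and 2.26-fold (2.11 to 2.41) above MICFs.

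The study's PCR primers for Gja1 are shown because they mark the part of the transcript that a PCR of this gene reads. They are printed 5′ to 3′ in lower case, and positions come from a match to GENCODE M21 on GRCm38.
Gja1 forward primer: tgggggaaaggcgtgaggga
Gja1 reverse primer: acccatgtctgggcacctctctt
On the transcript with 2 exons, the forward primer lies in exon 1 within the 5′ untranslated region, at chr10:56377364-56377383. The reverse primer crosses the junction of exons 1 and 2, from 56377515 to 56387552, and covers the start codon. Their product is 174 bases long, at the 5′ end of the transcript, whereas the counts are per gene, with 10257 bases of exon.

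Gja5 (ENSMUSG00000057123, chr3:96904693-97077416, plus strand) ran the other way. It was at 567 counts in MICFs and 1 in GMTMS-iCMs, with 31 in the library labelled GMTMM, or 6.86, 0.0187 and 0.462 FPKM. Both iCM libraries were below MICFs. Gja5 was 366-fold lower in GMTMS-iCMs, with an interval from 65.4 to 14481 that reflects the single count there. The library labelled GMTMM was 14.8-fold lower (10.3 to 22.1). The log2 differences were −2.96 and −2.47. Between the transduced libraries Gja5 was 24.6-fold lower (4.11 to 1005) in GMTMS-iCMs, again with the single count, and the log2 difference of −0.48 passed −1 under 4 of 9 other scalings. In the annotation, 24.2% of the 50-base words of the Gja5 transcript also occur in Gpr89 or Zfp697, and 2.87% of its exon bases lie in Gpr89 exons of the opposite strand, with the handling of strand in counting not given. Gpr89 itself had 170, 136 and 135 counts.

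Gjc1 (ENSMUSG00000034520, chr11:102799579-102819700, minus strand) encodes connexin 45, a connexin of nodal tissue and the embryonic heart. Its counts were 160 in MICFs and 36 in GMTMS-iCMs, with 198 in the library labelled GMTMM, at 2.22, 0.775 and 3.39 FPKM. GMTMS-iCMs were the low library, at 0.349 of the MICF level (0.236 to 0.503), and the library labelled GMTMM stood at 1.52 times it (1.23 to 1.89). Neither log2 difference from MICFs, −0.75 or 0.47, was over 1, but the first passed −1 under 4 of 9 other scalings. The difference between the transduced libraries was −1.22, with GMTMS-iCMs 4.37-fold lower (3.05 to 6.42).

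Shares of a gene family within a library do not depend on how the libraries are scaled against each other. These shares were added after the values had been seen. Over the 20 connexin genes, Gja1 made up 17.7% of the summed FPKM in MICFs and 90.2% in GMTMS-iCMs, with 47.5% in the library labelled GMTMM. Gja4, encoding connexin 37 of arterial endothelium, made up 61.9%, 1.12% and 39.0%. Gja5 accounted for 13.8%, 0.0654% and 0.893%. By FPKM, Gja1 was thus the leading connexin of both iCM libraries and Gja4 that of MICFs. The lead of Gja4 in MICFs rests on the gene lengths, since by counts Gja1 led there too, with 1298 against 744. With Gja4 left out, the share of Gja1 was 46.6% in MICFs and 91.2% in GMTMS-iCMs, with 77.9% in the library labelled GMTMM. The summed FPKM of the family was 49.5, 28.6 and 51.7, lowest in GMTMS-iCMs, where almost all of it was Gja1. Unlike the shares, this sum depends on how the libraries are scaled, and it weights each gene by its length. The unscaled counts of the family were 2797, 2534 and 3637, so a smaller connexin pool in GMTMS-iCMs is not shown.

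Markers of endothelial cells were lower in GMTMS-iCMs, as were Gja4 and Gja5. In the library labelled GMTMM the summed FPKM of these markers was 1.34-fold lower than in MICFs. Gja4 was 1.52-fold lower there and Gja5 14.8-fold lower. The 8 endothelial markers (Pecam1, Cdh5, Kdr, Tek, Tie1, Cldn5, Emcn and Egfl7) summed to 472 FPKM in MICFs and 12.8 in GMTMS-iCMs, with 352 in the library labelled GMTMM, and none was at 0. All 8 were lower in GMTMS-iCMs and 3 of 8 in the library labelled GMTMM. Relative to Cdh5 (VE-cadherin, the endothelial adherens junction cadherin), the FPKM of Gja5 was 0.0336 in MICFs and 0.00466 (0.000117 to 0.0263) in GMTMS-iCMs, with 0.00313 (0.00213 to 0.00445) in the library labelled GMTMM. The ratio was below that of MICFs in both iCM libraries. In bulk RNA, fewer cells of a type and less RNA per cell cannot be told apart, and the part of endothelial cells in the result was not tested.

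**Figure D2:**
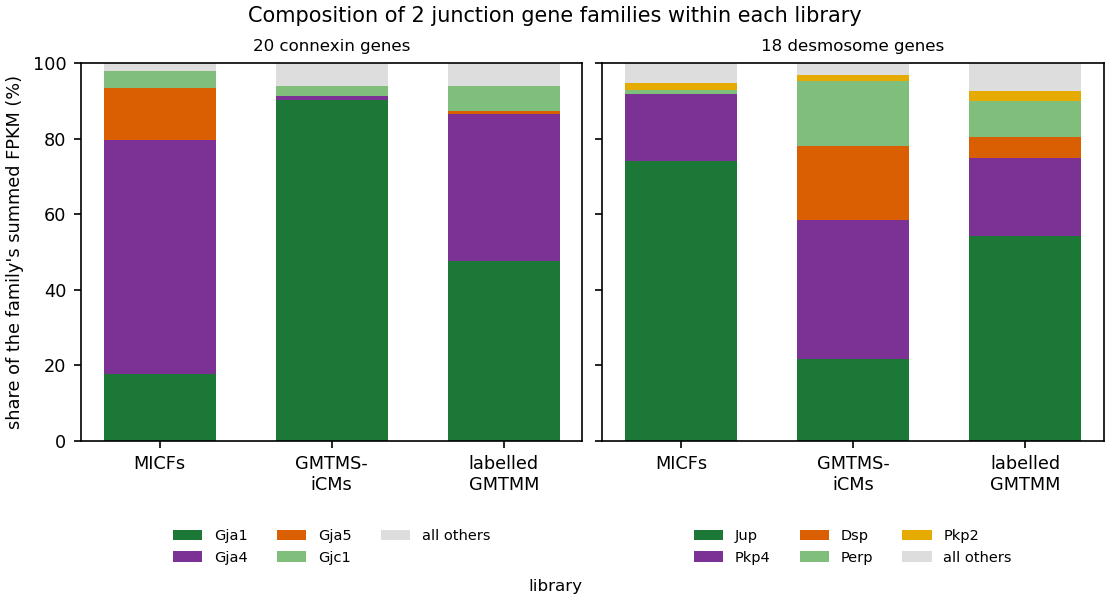
Stacked bars of each gene's share (vertical axis, %) of the summed FPKM of 20 connexin and 18 desmosome genes, within each of the 3 libraries (horizontal axis). Gja1 goes from 17.7% of connexin FPKM in MICFs to 90.2% in GMTMS-iCMs and Dsp from 0.0935% to 19.8% of desmosome FPKM.

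In the desmosome, desmoglein and desmocollin cadherins bind across the gap, plakoglobin and plakophilins bind their tails, and desmoplakin ties the plaque to desmin. Dsp (ENSMUSG00000054889, chr13:38151294-38198577, plus strand), encoding desmoplakin, was at 4 counts in MICFs and 896 in GMTMS-iCMs, with 223 in the library labelled GMTMM. Its levels were 0.0288, 9.99 and 1.98 FPKM. The order was the same on every scale, with GMTMS-iCMs highest and MICFs near the limit of counting. Dsp was 347-fold higher (135 to 1276) in GMTMS-iCMs and 68.7-fold higher (26.5 to 254) in the library labelled GMTMM. The log2 differences were 3.42 and 1.53, and the wide intervals come from the 4 counts in MICFs. The transduced libraries differed from each other by 1.89, a ratio of 5.05 (4.36 to 5.88) that does not rest on the MICF counts. On the opposite strand, exons of Gm10129 overlap 5.17% of the exon bases of Dsp, and Gm10129 had 0, 1 and 0 counts.

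Pkp2 (ENSMUSG00000041957, chr16:16213318-16272712, plus strand), encoding plakophilin 2 of the cardiac desmosome, stayed low. Its counts were 39, 42 and 59, in the order MICFs, GMTMS-iCMs, library labelled GMTMM, or 0.506, 0.844 and 0.942 FPKM. The ratio to MICFs was 1.67 (1.05 to 2.65) in GMTMS-iCMs and 1.86 (1.22 to 2.87) in the library labelled GMTMM, and the log2 differences were 0.36 and 0.37. With library totals the ratios were 1.20 (0.759 to 1.91) and 1.51 (0.989 to 2.32), intervals that hold 1. Dsp and Pkp2 therefore separated within the libraries, and the ratio of Dsp to Pkp2 FPKM was 0.0569 in MICFs and 11.8 in GMTMS-iCMs, with 2.10 in the library labelled GMTMM.

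Dsg2 (ENSMUSG00000044393, chr18:20558074-20604521, plus strand), encoding the desmoglein of heart muscle, was at 27 counts in MICFs and 9 in GMTMS-iCMs, with 29 in the library labelled GMTMM. Its levels were 0.227, 0.117 and 0.300 FPKM. The ratio to MICFs was 0.516 (0.214 to 1.13) in GMTMS-iCMs and 1.32 (0.756 to 2.32) in the library labelled GMTMM. Both intervals hold 1 on the deposited scaling. With library totals the ratio of Dsg2 to MICFs in GMTMS-iCMs was 0.372 (0.154 to 0.815), an interval below 1. In the library labelled GMTMM it was 1.07 (0.612 to 1.88). Whether Dsg2 differed from MICFs in GMTMS-iCMs therefore depended on the scaling. Its ratio between the transduced libraries was 0.390 (0.163 to 0.847). Of its 50-base words, 5.07% also occur in other genes.

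Jup (ENSMUSG00000001552, chr11:100368958-100397763, minus strand) encodes plakoglobin, which serves in both desmosomes and adherens junctions. It was at 2114 counts in MICFs and 656 in GMTMS-iCMs, with 1499 in the library labelled GMTMM, at 22.8, 10.97 and 19.9 FPKM. GMTMS-iCMs were the low library, 2.08-fold lower (1.90 to 2.27) than MICFs. The library labelled GMTMM was 1.14-fold lower (1.07 to 1.22). The log2 differences were −1.25 and −0.51. Without quantile normalization these differences came to −0.99, which ends the call in GMTMS-iCMs, and −0.19. The folds here are of deposited FPKM, which are not quantile-normalized.

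Of the 4 desmosome genes, Dsp was higher and Jup lower in GMTMS-iCMs, with 2 past neither limit, and Dsp alone passed it in the library labelled GMTMM. The ratio of Dsp to Jup FPKM went from 0.00126 (0.000343 to 0.00323) in MICFs to 0.910 (0.822 to 1.01) in GMTMS-iCMs. It was 0.0991 (0.0857 to 0.114) in the library labelled GMTMM. Over 18 desmosome genes, Dsp made up 0.0935% of the summed FPKM in MICFs and 19.8% in GMTMS-iCMs, with 5.39% in the library labelled GMTMM, and Jup made up 74.2%, 21.7% and 54.4%. The rest was mostly Pkp4 (17.6%, 36.7% and 20.6%) and Perp (1.16%, 17.0% and 9.56%). Pkp2 and Dsg2 together stayed a minor part, with Pkp2 at 1.64%, 1.67% and 2.57% and Dsg2 at 0.737%, 0.232% and 0.818%. Among these 18 genes, from which Des was left out, Pkp4, Jup, Dsp and Perp thus had the largest shares in GMTMS-iCMs. Dsg2 had a minor share in all 3 libraries.

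The 8 cardiomyocyte markers (Actc1, Myh6, Tnnt2, Tnni3, Ttn, Ryr2, Actn2 and Mybpc3) had the same order of libraries as Dsp. They summed to 1.61 FPKM in MICFs and 684 in GMTMS-iCMs, with 244 in the library labelled GMTMM, and Myh6, Ryr2 and Actn2 were at 0 in MICFs. Dsp stood at 0.0443 (0.0413 to 0.0474) of the FPKM of Myh6 in GMTMS-iCMs and at 0.0302 (0.0263 to 0.0345) in the library labelled GMTMM. Relative to Tnnt2 it stood at 0.116 (0.108 to 0.124) and 0.0498 (0.0433 to 0.0570). Between the iCM libraries Dsp differed 5.05-fold and the marker sum 2.81-fold. Dsp is also a gene of epithelia, and the 8 epicardial and mesothelial markers, keratins among them, summed to 1.34, 11.3 and 25.3 FPKM. Of the 8, 2 were higher and 0 lower in GMTMS-iCMs, and 3 were higher and 0 lower in the library labelled GMTMM. Krt18 went from 0.387 FPKM in MICFs to 7.49 and 8.34, and Lrrn4 from 0.131 to 2.52 and 11.02. Upk1b, Msln and Krt19 were at 0 in GMTMS-iCMs. The part of these cells in the level of Dsp was not tested.

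**Figure D3:**
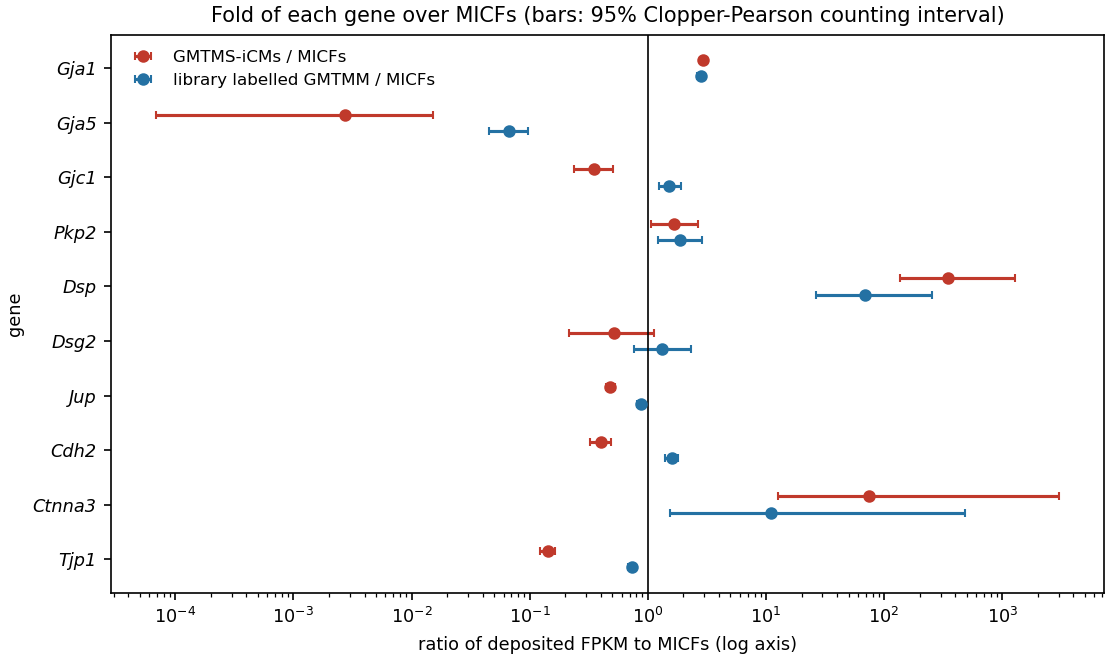
Ratio of deposited FPKM to MICFs (horizontal log axis) for each gene (vertical axis) in GMTMS-iCMs (red) and the library labelled GMTMM (blue), with 95% Clopper-Pearson counting intervals as bars. Dsp lies at 347 and 68.7, Gja1 at 2.94 and 2.79, and Gjc1 and Cdh2 lie on opposite sides of 1 in the 2 libraries.

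In the adherens junction, cadherins bind across the gap and catenins join their tails to actin. Cdh2 (ENSMUSG00000024304, chr18:16588877-16809246, minus strand), encoding N-cadherin, the cadherin of the intercalated disc, is also made by fibroblasts. It was at 460 counts in MICFs and 119 in GMTMS-iCMs, with 595 in the library labelled GMTMM, at 3.96, 1.59 and 6.32 FPKM. Its pattern was that of Gjc1, low in GMTMS-iCMs and highest in the library labelled GMTMM. The ratios to MICFs were 0.401 (0.325 to 0.491) and 1.59 (1.41 to 1.80), and neither log2 difference, −0.82 or 0.56, was over 1, although the first passed −1 under 4 of 9 other scalings. GMTMS-iCMs were 3.98-fold lower (3.26 to 4.88) than the library labelled GMTMM, a difference of −1.38. The 8 fibroblast markers (Col1a1, Col1a2, Col3a1, Pdgfra, Dcn, Postn, Tcf21 and Thy1) had the same order, with sums of 1383, 198 and 2580 FPKM and none at 0. All 8 were lower in GMTMS-iCMs and 1 was higher in the library labelled GMTMM, and the part of fibroblasts in the level of Cdh2 was not tested.

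Within the 7 cadherin genes measured together, the share of Cdh2 was 1.78% in MICFs and 18.8% in GMTMS-iCMs, with 3.75% in the library labelled GMTMM. Cdh5 held 91.7%, 47.5% and 87.6%. The larger share of Cdh2 in GMTMS-iCMs stood beside a lower level, since the summed FPKM of the 7 genes was 223, 8.46 and 168.

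Ctnna3 (ENSMUSG00000060843, chr10:63430098-65003667, plus strand) encodes αT-catenin, an alpha catenin found mainly in heart and testis. It was at 1 count in MICFs and 48 in GMTMS-iCMs, with 9 in the library labelled GMTMM, at 0.00962, 0.715 and 0.107 FPKM. The order was that of Dsp, at far lower levels. The ratio to MICFs was 74.4 (12.7 to 2998) in GMTMS-iCMs and 11.1 (1.54 to 486) in the library labelled GMTMM, and between both it was 6.71 (3.26 to 15.5). The log2 differences of 0.82 and 0.13 did not pass 1, with all levels under the pseudocount of 1, but they passed it under 4 and 2 of 8 other scalings, and the difference between the transduced libraries (0.69) under 4 of 8. Ctnna1, the widely expressed alpha catenin, had over 99% of the family's FPKM in every library, and Ctnna3 had 0.0106%, 0.768% and 0.0992%.

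Tjp1 (ENSMUSG00000030516, chr7:65296165-65527781, minus strand) encodes ZO-1, a scaffold of tight and adherens junctions that also binds connexin 43. It was at 2481 counts in MICFs and 227 in GMTMS-iCMs, with 1465 in the library labelled GMTMM, at 22.1, 3.13 and 16.1 FPKM. GMTMS-iCMs were far below the other libraries, 7.05-fold lower (6.16 to 8.12) than MICFs and 5.13-fold lower (4.46 to 5.93) than the library labelled GMTMM. The log2 differences from MICFs were −2.63 and −0.73, and the library labelled GMTMM was 1.37-fold lower (1.29 to 1.47). Without quantile normalization the differences were −2.48 and −0.44. The ratio of Tjp1 to Cdh5 FPKM was 0.108 (0.103 to 0.113) in MICFs, 0.109 (0.103 to 0.115) in the library labelled GMTMM and 0.778 (0.632 to 0.960) in GMTMS-iCMs, and the part of endothelial cells in the level of Tjp1 was not tested.

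The order of the levels also differed between libraries. In MICFs it ran Jup, Tjp1, Gja1, Gja5, Cdh2, Gjc1, Pkp2, Dsg2, Dsp and Ctnna3, and Jup and Tjp1, like Dsp and Ctnna3, did not differ beyond counting error. In GMTMS-iCMs it ran Gja1, Jup, Dsp, Tjp1, Cdh2, Pkp2, Gjc1, Ctnna3, Dsg2 and Gja5. There the neighbours that did not differ beyond counting error were Jup and Dsp, Pkp2 and Gjc1, Gjc1 and Ctnna3, and Dsg2 and Gja5. In the library labelled GMTMM it ran Gja1, Jup, Tjp1, Cdh2, Gjc1, Dsp, Pkp2, Gja5, Dsg2 and Ctnna3, with only Gja5 and Dsg2 not apart. Gja1 moved from the third place to the first in both iCM libraries.

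The other genes of the same junctions were followed as 5 lists with 79 genes, of which 54 had at least 10 counts in at least 1 library. In GMTMS-iCMs 5 of the 79 were higher and 11 lower than in MICFs, beside the 3.13% and 2.72% of all genes and the 9.00% and 8.69% of counted genes given above. Each of these genes was among the 54 counted, where the share higher was near this background and the share lower was above it. The balance depended on the scaling, with 20 higher and 19 lower at a pseudocount of 0.1 and 24 and 23 with size factors. With TMM it was 19 and 22, and with library totals 9 and 22. All genes had 4138 and 4191, 5458 and 6393, 3586 and 4276, and 1315 and 3772 under these scalings in turn. In the library labelled GMTMM 5 were higher and 1 was lower (6.43% and 3.53% of counted genes), and between the transduced libraries 4 were higher and 10 lower in GMTMS-iCMs (6.11% and 9.07%). Over the counted genes of the lists, the median differences were −0.17, 0.09 and −0.27 in these comparisons, beside −0.07, −0.08 and 0.06 over all counted genes.

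Among 20 other connexins and pannexins, only Gja4 was lower in GMTMS-iCMs, from 744 counts in MICFs to 5, beside 397 in the library labelled GMTMM. It was 96.0-fold lower (41.0 to 297) in GMTMS-iCMs. Of the 20 genes, 7 had at least 10 counts in 1 library, and over all such genes 8.69% were lower there. Panx1, encoding a large-pore channel that does not form gap junctions in the usual sense, had 2.09, 4.54 and 5.39 FPKM and was higher in the library labelled GMTMM, with differences of 0.96 and 1.08.

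Of 15 other desmosome genes, 6 of them counted, 2 were higher and none lower in each comparison. Over all counted genes, 9.00%, 6.43% and 6.11% were higher and 8.69%, 3.53% and 9.07% lower in the 3 comparisons. Perp, a membrane protein of desmosomes, had 10, 156 and 80 counts and was 24.2-fold (12.8 to 51.4) and 9.85-fold (5.09 to 21.3) above MICFs. Pkp4, a plakophilin-like armadillo protein also found at adherens junctions, was 3.43-fold higher (3.06 to 3.85) in GMTMS-iCMs, from 5.41 to 18.5 FPKM. Des, encoding the desmin that desmoplakin anchors, had 5.59, 11.7 and 19.5 FPKM and passed the limit in the library labelled GMTMM, at 3.48-fold (3.05 to 3.98). Perp and Pkp4 were also higher in GMTMS-iCMs than in the library labelled GMTMM.

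Of 16 other adherens junction genes, 4 were lower and none higher in GMTMS-iCMs, and 1, Arvcf, was lower in the library labelled GMTMM. Cdh13, T-cadherin, went from 11.2 FPKM in MICFs to 0.757 in GMTMS-iCMs, 14.8-fold lower (11.8 to 18.8), and was 9.70 in the library labelled GMTMM. Arvcf, a catenin of the p120 family, was 19.1-fold lower (12.1 to 32.0) in GMTMS-iCMs, and the library labelled GMTMM was 2.87-fold lower (2.41 to 3.45). Nectin2 and the mesenchymal cadherin Cdh11 were lower in GMTMS-iCMs by 2.91-fold (2.48 to 3.43) and 9.09-fold (6.10 to 14.1).

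In the list of 8 other tight junction scaffold genes, all of them counted, GMTMS-iCMs had 3 lower and 0 higher. None passed the limit in the library labelled GMTMM. Over all counted genes, 8.69% were lower and 9.00% higher in GMTMS-iCMs. Cgnl1 (paracingulin) was 6.94-fold lower (6.04 to 8.01), F11r (the adhesion molecule JAM-A) 6.25-fold lower (4.98 to 7.94) and Magi1 6.78-fold lower (5.00 to 9.38) in GMTMS-iCMs. These 3 genes were named because they passed the limit, so sharing the direction of Tjp1 is no separate result. The other genes of the list ran from −0.40 for Dlg1 to 0.32 for Cxadr in GMTMS-iCMs.

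In GMTMS-iCMs 3 of the 20 disc-associated genes were higher and 3 were lower, and 2 were higher in the library labelled GMTMM. Ldb3, a Z-disc protein also called Cypher, had 87, 938 and 488 counts and was 16.7-fold (13.4 to 21.1) and 6.91-fold (5.49 to 8.78) above MICFs. Popdc2, a membrane protein of the popeye family, was 2.47-fold higher (1.82 to 3.37) in GMTMS-iCMs. Csrp3, the muscle LIM protein, was the other gene higher in both iCM libraries, with 0, 68 and 38 counts, and is named after its values were seen because it had under 100 counts. Kcnj2, encoding the inward rectifier channel Kir2.1, was 2.81-fold lower (2.34 to 3.39), Lmo7 3.64-fold lower (2.98 to 4.49) and Sorbs2 4.01-fold lower (3.41 to 4.74) in GMTMS-iCMs. The lists therefore held genes of both directions, and the higher ones in both iCM libraries were Perp, Ldb3 and Csrp3.

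**Figure D4:**
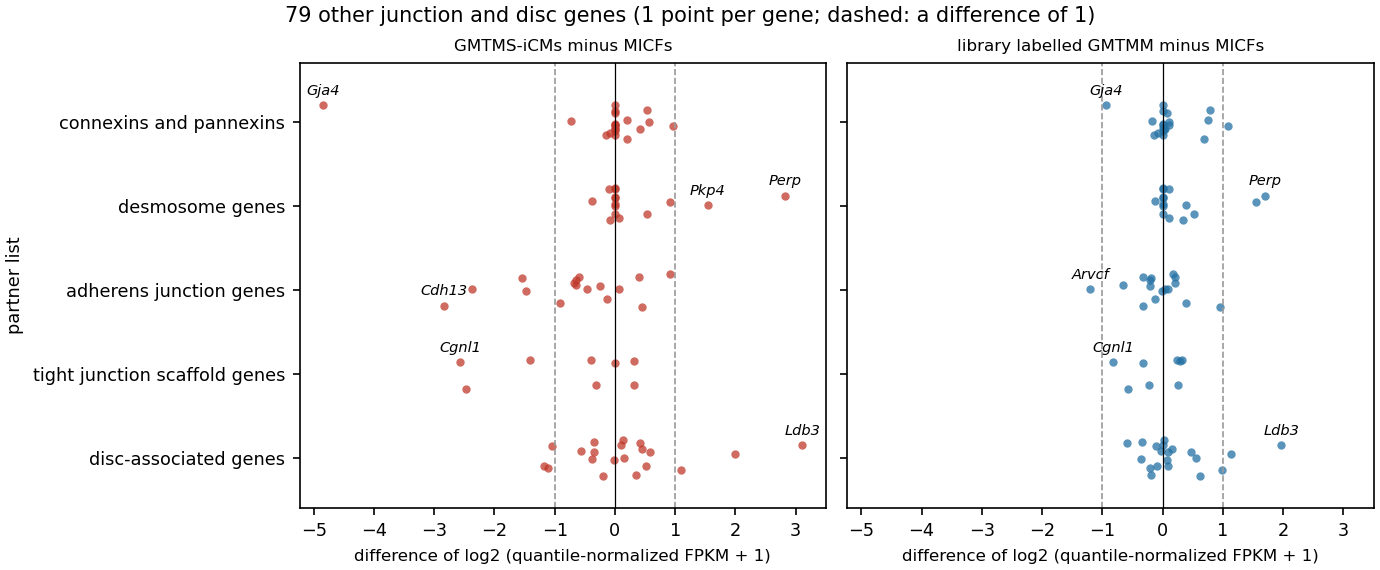
Difference from MICFs of log2 (quantile-normalized FPKM + 1) (horizontal axis) for 79 other junction and disc genes by list (vertical axis), 1 point per gene, in GMTMS-iCMs (left) and the library labelled GMTMM (right), with dashed lines at a difference of 1. On the left 5 points lie above 1 and 11 below −1, and on the right 5 and 1.

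Genes with a pattern close to that of Gja1 were sought by the distance between their pair of log2 differences from MICFs, among 7881 protein-coding genes with at least 100 counts in every library. The nearest were Fzd5 (differences 1.35 and 1.23), Acsl4 (1.25 and 1.22) and Stat3 (1.33 and 1.31), at distances of 0.053, 0.064 and 0.065. For Jup, next to Gja1 in mean FPKM over the libraries, they were Gdpd5 (−1.24 and −0.51), Cul7 (−1.31 and −0.49) and Ppp1r13b (−1.19 and −0.55), at distances of 0.0099, 0.062 and 0.071. With 3 libraries, a near pattern rests on 2 differences that share MICFs.

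**Figure D5:**
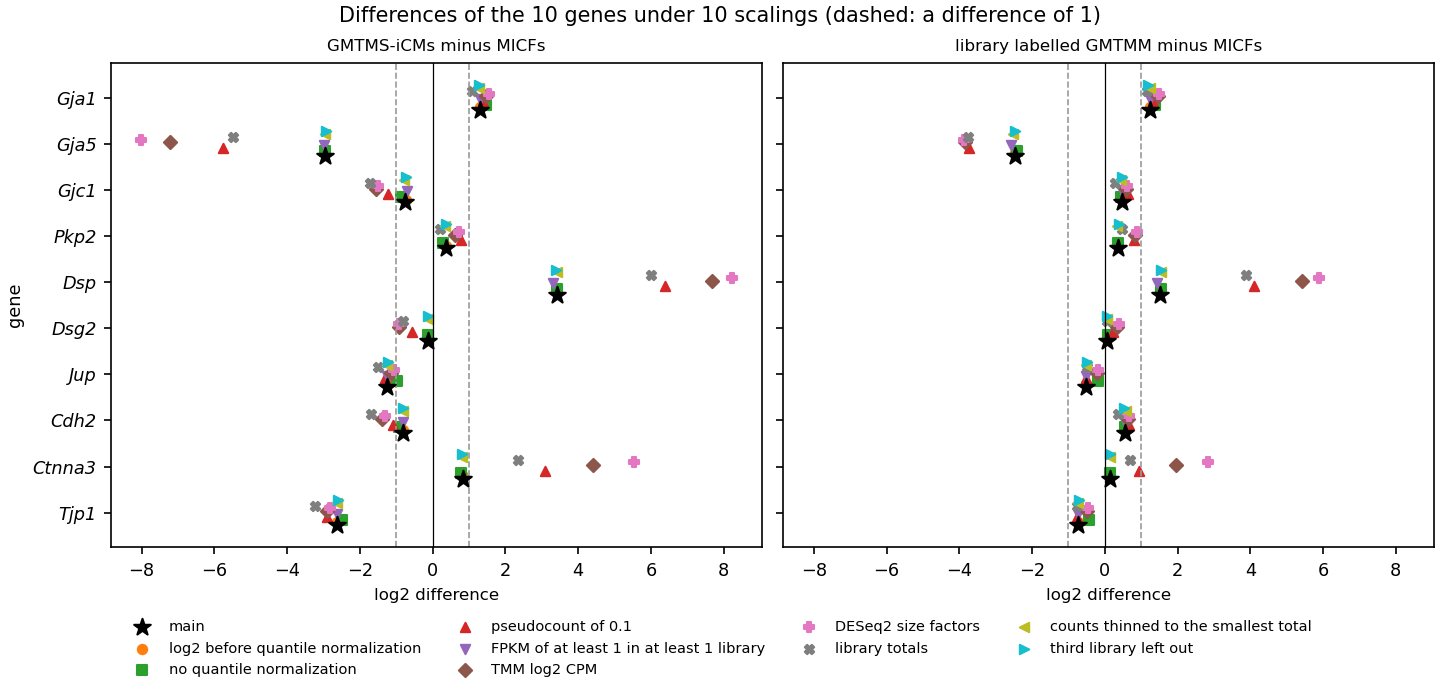
Log2 differences from MICFs (horizontal axis) of the 10 genes (vertical axis) under the main scale (star) and 9 other scalings (8 for Pkp2, Dsg2 and Ctnna3), in GMTMS-iCMs (left) and the library labelled GMTMM (right), with dashed lines at a difference of 1. Gja1, Gja5, Dsp and Tjp1 stay past 1 under every scaling shown in GMTMS-iCMs, and Gja5, Dsp and Ctnna3 spread widest.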

How the data were processed

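RNA-seq of 3 mouse libraries was analysed, 1 per condition (MICFs, GMTMS-iCMs and GMTMM-iCMs). The authors deposited read counts per gene without normalization and FPKM per gene, in 1 table each. The submitters' processing notes name HISAT2 2.0.5 and mm9, but all 10 genes lie at their GENCODE M21 coordinates on GRCm38, which are used here. How reads were counted, with or without strand and with several matches, is not given in the sources used here. The deposited FPKM were recovered from the counts and gene lengths with DESeq2 size factors (1.26, 0.811 and 1.02), so they are not scaled by library totals. The column cMF was taken as MICFs because the other columns name the cocktails, and 0 columns were left unused.

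FPKM were quantile-normalized over the 3 libraries and transformed as log2 (value + 1), as in the study's methods, and a difference over 1 was called. With 1 library per condition, no test was run. A count of 0 allows 3 counts. The steps were tested on simulated data. The 10 genes and all lists were chosen with earlier results of these data known. All 10 genes are named, as are up to 5 genes per partner list with at least 100 counts and a difference over 1 from MICFs, the marker genes beside them, and for Gja1 and Jup the 3 genes of nearest pattern. Family shares, within-library ratios and the background of genes with at least 10 counts were added after the values were seen.

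Alternatives were a pseudocount of 0.1, log2 taken before the quantile step or no such step, a filter at FPKM 1, TMM log2 CPM (prior count 2), DESeq2-type size factors (0.5 added), library totals, thinned counts, only the 2 libraries compared, and thresholds of 2 or 1.5 times. R 4.3.3 with edgeR 4.0.16 gave TMM factors, and Python 3.11.15 with pandas 2.3.3, numpy 2.4.6 and SciPy 1.17.1 gave all other values, plotted in matplotlib 3.10.9. PCR and imaging were not analysed here, and 1 gene of the partner lists was left out of all counts and is not reported here.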

Additional observations from a re-analysis of the deposited data

Results flagged for a closer look

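For 2 of the 10 genes the libraries of both cocktails lay on opposite sides of MICFs, with intervals that did not hold 1. The share of all genes that meet this rule was not computed, so whether 2 of 10 is unusual is not known. Neither gene passed the limit of 1 against MICFs in either library on the main scale. Gjc1, encoding connexin 45, was at 0.349 of the MICF level in GMTMS-iCMs (0.236 to 0.503) and at 1.52 in the library labelled GMTMM (1.23 to 1.89). Cdh2, encoding N-cadherin, was at 0.401 (0.325 to 0.491) and 1.59 (1.41 to 1.80). The difference was not tested across replicates, because there was 1 library per condition, and the library labelled GMTMM goes against its label in Sall4 and Mesp1. With library totals the ratio of the library labelled GMTMM to MICFs was 1.23 for Gjc1 (0.996 to 1.53), an interval that holds 1, and 1.29 for Cdh2 (1.14 to 1.46). The 8 fibroblast markers were lower in GMTMS-iCMs than in MICFs. In the library labelled GMTMM their sum was 1.87 times that of MICFs, but only 1 of the 8 was higher, with a median difference of 0.20.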

How the results depend on the processing

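No paired analysis was possible because the design held a single library of each kind. No replicate could be left out for the same reason. Of 261 recomputed differences of the 10 genes, 161 stayed within counting error of the main value, 100 moved beyond it and 0 changed the direction of a called difference. Gja1 (GMTMS-iCMs minus the library labelled GMTMM) changed sign near 0, from 0.05 to −0.09 with library totals, and Pkp2 from −0.01 to 0.01 with thinned counts. Against MICFs, Gja1, Gja5 and Dsp in both iCM libraries and Tjp1 in GMTMS-iCMs stayed past 1 under all 9 other scalings, and Jup in GMTMS-iCMs under 8 of 9. Library totals moved the median difference of the counted genes by more than the other scalings, to −0.43, −0.25 and −0.12 in the order of comparisons below. Low counts limit Gja5, Dsp, Dsg2 and Ctnna3, whose folds rest on fewer than 10 counts in at least 1 library.

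Numbers of genes past the limit are given as higher and lower, for GMTMS-iCMs minus MICFs, the library labelled GMTMM minus MICFs, and GMTMS-iCMs minus the library labelled GMTMM. The main numbers were 2 and 3, 2 and 1, and 1 and 3 for the 10 genes, and 5 and 11, 5 and 1, and 4 and 10 for the 79 partner genes. For the 10 genes, a pseudocount of 0.1, TMM, size factors, library totals and a limit of 1.5 times each gave 5 lower genes in the first comparison and 2 higher in the third. TMM, size factors and library totals gave 5 lower in the third, and the limit of 1.5 times gave 2 lower in the second. With a difference over 2 the 10 genes had 1 higher in the first comparison, 0 higher in the second, and 0 and 0 in the third.

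For the partner genes, a pseudocount of 0.1 gave 20 and 19, 18 and 4, and 11 and 22. With TMM they were 19 and 22, 24 and 5, and 11 and 27. Size factors gave 24 and 23, 27 and 5, and 13 and 28. Library totals gave 9 and 22, 13 and 3, and 19 lower. The limit of 2 left 3 and 5, 0 and 0, and 0 and 2, and a limit of 1.5 times gave 9 and 17, 11 and 5, and 7 and 17. Over all 54532 genes the main numbers were 1708 and 1485, 1156 and 708, and 1272 and 1550. They became 4138 and 4191, 3360 and 3194, and 3711 and 3837 with a pseudocount of 0.1, and 3586 and 4276, 3568 and 2652, and 2943 and 4450 with TMM. Size factors gave 5458 and 6393, 5133 and 4650, and 4796 and 5870. Library totals gave 1315 and 3772, 1231 and 1865, and 917 and 2441. The limit of 2 left 497 and 479, 329 and 63, and 74 and 513, and a limit of 1.5 times gave 3197 and 3148, 2393 and 2620, and 3180 and 2703. The cause was not tested. Shares of counts in place of FPKM, added after the values were seen, gave Gja1 46.4%, 97.2% and 80.9% of connexins (MICFs first, then GMTMS-iCMs), and Dsp 0.145%, 31.8% and 8.72% of desmosome genes.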
